A study of Mus musculus with 8 samples.

Results

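The ETS, TAL and GATA transcription factors of endothelial cells were described in tumor endothelial cells (TECs) that carried 1 or 2 working alleles of *Foxf1*. The 10 genes were chosen by name: the ETS family members *Erg*, *Fli1*, *Ets1*, *Ets2*, *Etv2*, *Etv6* and *Elk3*, the basic helix-loop-helix factors *Tal1* and *Lyl1*, and the zinc finger factor *Gata2*. All 10 were among the 33641 gene symbols of the RNA-seq data, and 9 of them were tested, with the 14964 symbols that had a TPM of 1 or more in 4 or more libraries. *Etv2* fell short of this. TPM gives a gene's share of all transcripts in a library after correction for length, so that levels of different genes in a library can be set side by side.

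Cells of the mouse Lewis lung carcinoma (LLC) line, labelled with mCherry, had been injected into the left lung lobe, and CD45-CD31+ cells were collected by FACS from microdissected tumors at day 21. The 4 endFoxf1+/- samples came from mice with the Pdgfb-iCreER transgene and 1 floxed *Foxf1* allele on a C57Bl/6 background. Tamoxifen, given by mouth to young adult mice, activates this Cre in endothelial cells with an active *Pdgfb* promoter and removes exon 1 of that allele, which leaves the other allele in place. The labels call the other 4 samples control, and the study's methods name littermates with the floxed allele or the Cre transgene alone, and for the injections also wild-type C57Bl/6 mice, without saying which of them gave these libraries. Control libraries are called C1 to C4, and endFoxf1+/- libraries H1 to H4. The labels do not say in words that each came from a separate mouse, so the p-values measure the spread between these samples. The deposited TPM keep no read number, and the depth of each library is unknown.

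ERG and FLI1 are ETS activators that bind GGAA cores at many endothelial enhancers and keep the genes of adult endothelium active, and ETS1 and ETS2 act downstream of growth factor and MAPK signaling. ETV2 is the pioneer factor of the embryo that starts the endothelial and blood program and is then switched off. ETV6 and ELK3 are ETS members that mainly repress, and ELK3 is turned into an activator by MAPK phosphorylation. TAL1 and LYL1 are related factors that pair with E proteins on E-boxes and join GATA factors through LMO2 and LDB1, and GATA2 is the main GATA factor of endothelium. Several of these factors are also made by hematopoietic progenitors, megakaryocytes and mast cells, and *Ets1*, *Fli1*, *Ets2* and *Etv6* by many leukocytes.

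In the genome (GRCm38, GENCODE M21), *Erg* lies at chr16:95359169-95586593 on the minus strand and *Ets2* beside it at chr16:95702075-95721051 on the plus strand. *Fli1* (chr9:32422204-32542861, minus) and *Ets1* (chr9:32636221-32757820, plus) are neighbors as well. The other genes are *Etv2* (chr7:30633616-30635852, minus), *Etv6* (chr6:134035700-134270158, plus), *Elk3* (chr10:93247414-93311135, minus), *Tal1* (chr4:115056426-115071755, plus), *Lyl1* (chr8:84701457-84704715, plus) and *Gata2* (chr6:88193891-88207032, plus). *Elk3* shares positions with *Cdk17* and *Lyl1* with *Nfix*, each on the opposite strand. The library kit does not mark strand, so reads where these genes overlap could have gone to either. The strand setting of the quantification is not given in the sources used here.

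The 250 bases before the annotated start were read from RefSeq (GRCm38.p6) for 8 of the 10 genes, in 12 windows, and 4 of them are shown because they belong to genes that differ in how they stood in library H3, described further on. They read 5′ to 3′ along the gene's strand, and capitals mark matches on either strand to the ETS words AGGAAG and CGGAAG, the GATA words AGATAA or TGATAA and also AGATAG or TGATAG, and the E-box CANNTG. The windows lie at chr16:95459349-95459598 (minus) for an internal start of *Erg*, chr4:115056176-115056425 (plus) for *Tal1*, chr8:84701207-84701456 (plus) for *Lyl1* and chr6:134035450-134035699 (plus) for *Etv6*.
Erg: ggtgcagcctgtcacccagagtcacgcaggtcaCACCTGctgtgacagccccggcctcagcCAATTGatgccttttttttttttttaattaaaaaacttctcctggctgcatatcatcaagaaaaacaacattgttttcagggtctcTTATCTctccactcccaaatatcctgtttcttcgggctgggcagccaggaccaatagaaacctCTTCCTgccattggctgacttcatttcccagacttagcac
Tal1: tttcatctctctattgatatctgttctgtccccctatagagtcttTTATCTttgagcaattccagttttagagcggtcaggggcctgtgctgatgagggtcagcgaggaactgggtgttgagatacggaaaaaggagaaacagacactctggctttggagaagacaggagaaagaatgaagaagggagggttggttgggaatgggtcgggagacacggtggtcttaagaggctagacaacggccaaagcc
Lyl1: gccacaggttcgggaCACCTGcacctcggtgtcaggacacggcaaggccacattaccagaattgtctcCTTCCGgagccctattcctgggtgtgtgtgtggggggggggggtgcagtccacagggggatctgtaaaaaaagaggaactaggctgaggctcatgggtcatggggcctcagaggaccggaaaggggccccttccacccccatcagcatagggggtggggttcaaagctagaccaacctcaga
Etv6: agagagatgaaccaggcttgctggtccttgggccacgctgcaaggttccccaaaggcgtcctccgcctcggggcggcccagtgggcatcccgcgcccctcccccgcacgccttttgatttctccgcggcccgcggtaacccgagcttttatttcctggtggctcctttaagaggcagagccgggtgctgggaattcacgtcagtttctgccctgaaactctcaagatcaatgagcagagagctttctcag
For *Erg* and *Tal1* the window with matches is shown, and their other windows, 2 for *Erg*, among them the one before the gene's 5′ end (chr16:95586594-95586843), and 1 for *Tal1*, held none of the words. The *Erg* window shown held 2 E-boxes, a GATA word and an ETS word (CTTCCT, the reverse complement of AGGAAG). The *Tal1* window held a GATA word in reverse, the *Lyl1* window an E-box and an ETS word in reverse, and the *Etv6* window none of these words. Of the 12 windows, 4 held an ETS word, 2 a GATA word and 2 an E-box. The shares among the 32817 windows of the same length before RefSeq starts were 39.2%, 26.6% and 66.2%. These matches describe the letters only.

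As a check of the labels, the targeted gene *Foxf1* had 213, 285, 296 and 331 TPM in C1 to C4 and 177, 203, 14.04 and 105 TPM in H1 to H4. All 4 endFoxf1+/- libraries lay below all 4 controls, with 282 ± 49.5 TPM in control and 125 ± 84.6 TPM in endFoxf1+/- libraries (SD, n = 4 in either group), and the exact permutation test over libraries (two-sided) gave p = 0.0286, the lowest possible with 4 against 4. Without H3 this p was 0.0571, again the lowest possible, with 3 against 4. Endothelial identity was read from 12 surface and junction markers, among them *Pecam1* (CD31) and *Cdh5* (VE-cadherin). Their geometric mean (of TPM + 1) stood between 88.1 and 110% of the control level in C1 to C4, H1 and H2, at 58.8% in H4 and at 5.92% in H3. In H3 all 12 myeloid markers were above all controls, with a median log2 difference of 3.535 from their control means. Their sum was 8809 TPM against 1470 to 5094 in control and 1879 to 4670 in the other endFoxf1+/- libraries. *Lyz2* alone made up most of it, with 6870 TPM in H3, 4955 TPM in C3 and 4476 TPM in H4. In H4, 3 of the 12 were above all controls. The 10 fibroblast and pericyte markers summed to 1346 TPM in H3 against 73.9 to 145 in control. In H1, H2 and H4 that fibroblast and pericyte sum was 197, 127 and 313 TPM. The matrix genes *Col3a1* (556 TPM), *Dcn* (533 TPM) and *Lum* (183.5 TPM) made up most of the H3 sum, and these 3 were above all controls in the other endFoxf1+/- libraries too (*Dcn* at 47.3, 36.6 and 82.6 TPM in H1, H2 and H4, against 7.64 to 22.7 TPM). Of the 10 markers, 5 were above and 2 below all controls in H3, and the pericyte gene *Rgs5* had 10.7 to 18.9 TPM in control and 3.71, 3.73, 0.602 and 6.67 TPM in H1 to H4. Over all 4 endFoxf1+/- libraries, 3 of the 10 were wholly higher and 1 wholly lower, beside 2.73% and 2.31% of all tested genes. In H3, 11500 of the 14964 tested genes were below their control mean. No gene of either list was at 0 in all 8 libraries. The part of other cells in the values that follow was not tested, and since the samples are bulk RNA, fewer endothelial cells and less RNA per cell cannot be told apart. H3 was therefore left out as an alternative.

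The transcription factors spanned a wide range of levels in control TECs. *Ets2* was highest at 314 ± 47.2 TPM (SD, n = 4), above 97.3% of the tested genes, and *Gata2* (205.5 ± 41.0 TPM) and *Elk3* (166 ± 26.3 TPM) came next. *Erg* (115 ± 15.4 TPM), *Ets1* (103 ± 22.8 TPM) and *Fli1* (91.2 ± 16.7 TPM) lay close together, above 91.9%, 90.8% and 89.6% of tested genes. *Etv6* had 49.6 ± 9.65 TPM and *Tal1* 24.6 ± 4.08 TPM, while *Lyl1* at 13.7 ± 3.84 TPM lay above 48.4% of tested genes. The embryonic factor *Etv2* was listed at 0 in 7 libraries and at 0.0790 TPM in C3.

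**Figure D1:**
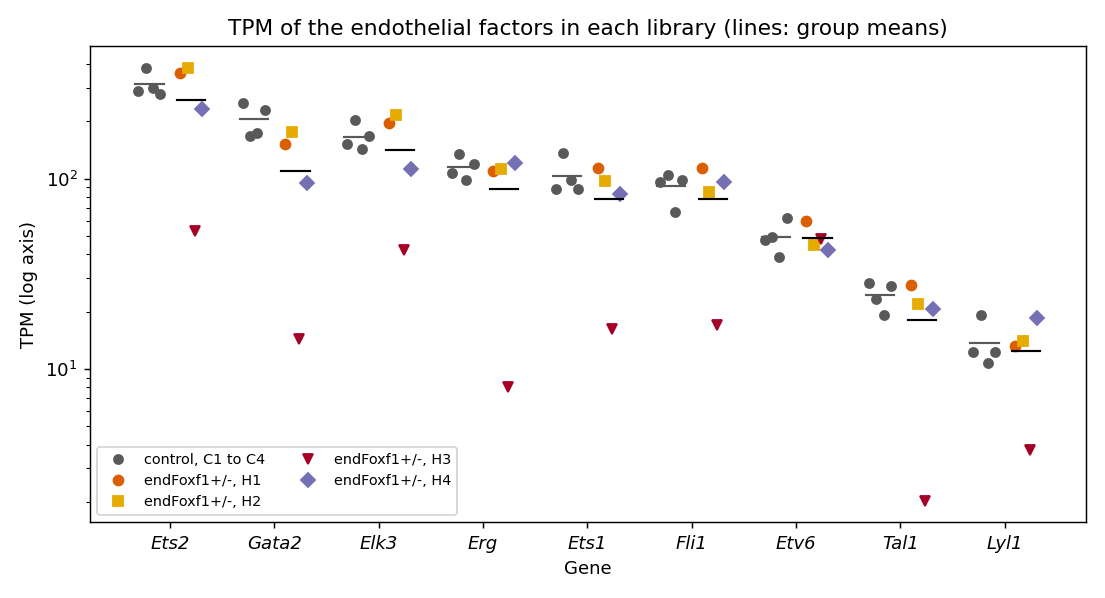
TPM (log axis) of the 9 tested transcription factors in each library, with controls in gray, endFoxf1+/- libraries in colors and lines at the group means. H1, H2 and H4 lie among or near the controls for most genes, and H3 (down-pointing triangles) lies far below for all genes except *Etv6*, which stood at 48.5 TPM in H3 against 38.9 to 62.3 TPM in control.

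Over all 8 libraries and on the log2(TPM + 1) scale, the order was *Ets2*, *Elk3*, *Gata2*, *Erg*, *Ets1*, *Fli1*, *Etv6*, *Tal1*, *Lyl1* and *Etv2*. *Elk3* stood above *Gata2* in 5 of 8 libraries, by 0.16, while in control *Gata2* had the higher mean (205.5 against 166 TPM). Neighbors in this order were compared within libraries by an exact two-sided sign-flip permutation test, adjusted over the 9 pairs by Benjamini-Hochberg. The order came from the same values, so these tests measure only how steady each step was over the 8 libraries of both genotypes. *Ets2* was above *Elk3* in 8 of 8 libraries by 0.84 (adjusted p = 0.0234) and *Etv6* above *Tal1* in 8 of 8 by 1.38 (adjusted p = 0.0234). *Lyl1* passed against *Etv2* too, but any expressed gene would, with *Etv2* listed at 0 in 7 libraries. The other 6 pairs did not pass, among them *Gata2* above *Erg* in 7 of 8 libraries by 0.60 (adjusted p = 0.0527) and *Tal1* above *Lyl1* in 7 of 8 by 0.55 (adjusted p = 0.0844). *Erg* and *Ets1* differed by 0.06 (adjusted p = 0.773), *Ets1* and *Fli1* by 0.07 (adjusted p = 0.613). Without H3, 5 of the 9 pairs passed, that of *Lyl1* and *Etv2* included.

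*Erg* had 108, 134, 98.9 and 119 TPM in C1 to C4 and 109.9, 112, 8.04 and 121 TPM in H1 to H4. H1, H2 and H4 lay within the control range, and H3 stood at 6.98% of the control mean. The fitted difference was -0.92 ± 0.76 (SE) on the log2 scale and -0.00046 without H3, so that a single library carried all of it. *Fli1*, the closest relative of *Erg*, had 95.6, 104.5, 66.8 and 97.9 TPM in control and 114, 85.0, 17.0 and 96.6 TPM in endFoxf1+/- libraries. H3 was again the only library below the controls, at 18.7% of their mean, while H1 was above all of them. The log2 difference of *Fli1* was -0.49 ± 0.54 (SE) and turned to 0.12 without H3.

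*Ets1* had 88.3, 136, 98.0 and 88.6 TPM in control and 114, 97.5, 16.2 and 82.9 TPM in endFoxf1+/- libraries. H3 (15.7% of the control mean) and H4 (80.6%) were below all controls, H4 by a small margin. *Ets2* had 290.3, 384, 301 and 280.4 TPM in control and 361, 384, 53.3 and 233 TPM in endFoxf1+/- libraries. H1 and H2 were at the upper end of the controls, and H3 and H4 below all of them at 17.0% and 74.3% of their mean. The log2 differences were -0.68 ± 0.55 (SE) for *Ets1* and -0.61 ± 0.56 (SE) for *Ets2*, and -0.05 and 0.03 without H3.

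The repressor *Etv6* had 47.7, 49.4, 38.9 and 62.3 TPM in control and 60.0, 44.6, 48.5 and 42.3 TPM in endFoxf1+/- libraries, so that all 4 endFoxf1+/- values, H3 included, lay within the control range. Its log2 difference was -0.01 ± 0.22 (SE), and -0.01 without H3, and in H3 it stood at 97.7% of the control mean. *Elk3*, the other repressor, had 152, 203, 144 and 167 TPM in control and 196, 217, 42.3 and 113 TPM in endFoxf1+/- libraries. H2 was above all controls, and H3 and H4 below them at 25.4% and 68.0% of their mean. Its log2 difference was -0.46 ± 0.47 (SE), and 0.03 without H3. The overlapping *Cdk17*, a cyclin-dependent kinase gene, had 75.7 to 118 TPM in control and 22.6 TPM in H3, and its part in the *Elk3* value was not tested.

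*Tal1* had 28.3, 23.4, 19.3 and 27.2 TPM in control and 27.5, 21.9, 2.03 and 20.8 TPM in endFoxf1+/- libraries. Only H3, at 8.27% of the control mean, lay outside the control range. *Lyl1* had 12.3, 19.3, 10.7 and 12.3 TPM in control and 13.2, 13.96, 3.73 and 18.6 TPM in endFoxf1+/- libraries. H3 stood at 27.3% and H4 at 136% of the control mean. The log2 differences were -0.81 ± 0.64 (SE) for *Tal1* and -0.27 ± 0.43 (SE) for *Lyl1*, and -0.06 and 0.17 without H3. *Nfix*, which overlaps *Lyl1*, had 101 TPM in H3 and 91.6 to 106.5 TPM in control.

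*Gata2* was the factor with the lowest endFoxf1+/- values relative to control, with 249.8, 168, 174 and 231 TPM in C1 to C4 and 152, 176, 14.3 and 95.1 TPM in H1 to H4. H1, H3 and H4 were below all controls and H2 lay just inside their range. The means were 205.5 ± 41.0 TPM in control and 109 ± 71.7 TPM in endFoxf1+/- libraries (SD, n = 4 in either group), and H1 to H4 stood at 73.8%, 85.5%, 6.96% and 46.3% of the control mean. The log2 difference was -1.36 ± 0.68 (SE), and -0.57 ± 0.25 (SE) without H3. The difference did not pass the exact two-sided permutation test (p = 0.0857, and 0.171 without H3).

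No member passed the test across all genes in limma on log2(TPM + 1), with Benjamini-Hochberg adjustment over the 14964 genes. Of the 9 tested, 0 had an adjusted p under 0.05, beside 0 of 14964 genes (0%), and 836 genes had an unadjusted p under 0.05. The adjusted p was 0.790 for *Gata2*, 0.797 for *Erg*, *Ets1* and *Tal1*, 0.800 for *Ets2*, 0.807 for *Elk3*, 0.817 for *Fli1*, 0.862 for *Lyl1* and 0.989 for *Etv6*. All 9 fitted differences were negative, with a median of -0.61, beside a median of -0.17 over all tested genes. Without H3 the median of the 9 was -0.00046 and that of all genes 0.01. No member had endFoxf1+/- TPM wholly below or wholly above the controls. Among all tested genes 2.31% were wholly lower and 2.73% wholly higher. Under other scalings *Gata2* was wholly lower, with quantile normalization (log2 difference -1.15, limma adjusted p = 0.671, and 440 of 14964 genes wholly lower) and with median ratio scaling (-1.17, limma adjusted p = 0.674, 462 of 14964 genes). Without H2 it was wholly lower too (-1.74, limma adjusted p = 0.451, 844 of 14609 genes). That follows from the choice of library, since H2 was the only endFoxf1+/- library within the control range of *Gata2*.

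In library H3 the lower levels were uneven among the factors, and for most of them less marked than in the surface markers. The 12 markers differed from their control means by -4.55 (*Tek*) to -3.58 (*Eng*) on the log2(TPM + 1) scale, with a median of -4.07. The 9 factors differed by -3.73 to -0.01, with a median of -2.53, beside a median of -0.71 over all tested genes. *Gata2* (-3.73) and *Erg* (-3.67) lay within the range of the markers, and the other 7 were nearer to control than every marker: *Tal1* at -3.06, *Ets1* at -2.57, *Ets2* at -2.53, *Fli1* at -2.34, *Elk3* at -1.94, *Lyl1* at -1.60 and *Etv6* at -0.01. For *Tal1*, at 2.03 TPM in H3, this rests on the added 1. As a share of the control mean, *Tal1* stood at 8.27% and the marker *Eng* at 8.20%. Of all tested genes, 1.71% had a lower H3 difference than *Erg* and 76.5% a lower one than *Etv6*. This is a description of 1 library, in which all 12 myeloid markers were above all controls.

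**Figure D2:**
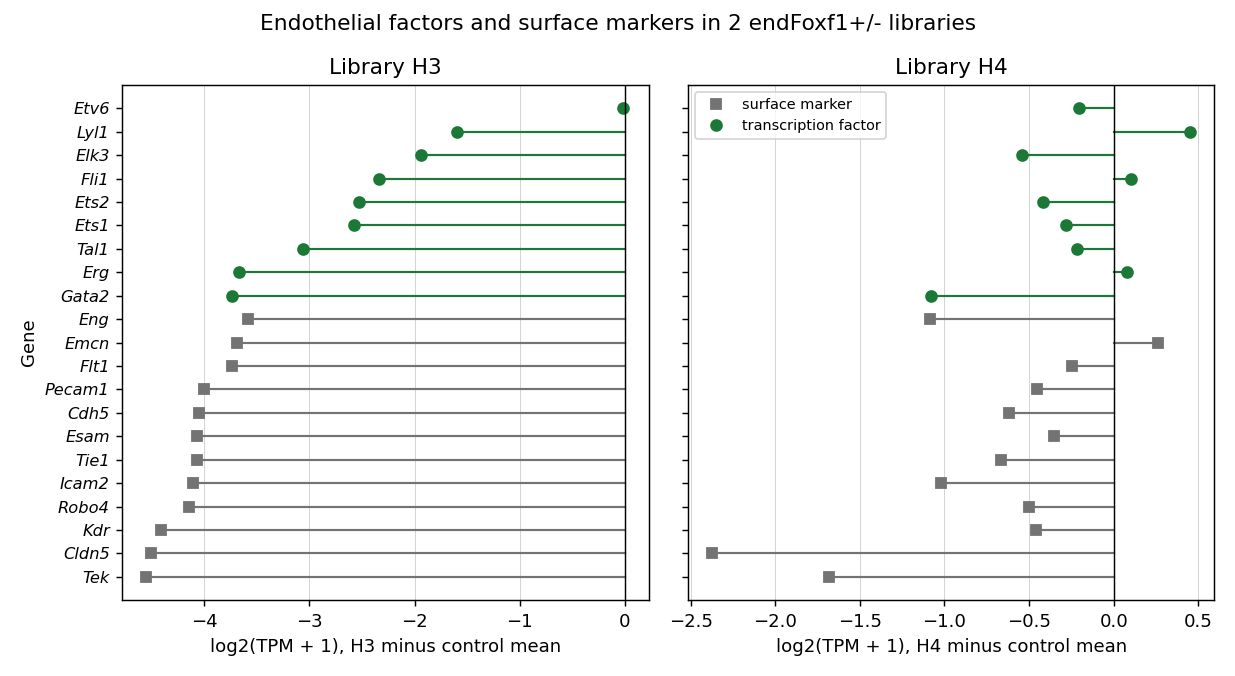
Difference from the control mean on the log2(TPM + 1) scale of the 9 transcription factors (green circles) and 12 surface endothelial markers (gray squares) in libraries H3 (left) and H4 (right), which have separate horizontal axes. In H3 *Erg* and *Gata2* lie among the markers and the other factors to their right, and in H4 *Lyl1*, *Fli1* and *Erg* lie above 0 while *Gata2* is lowest of the factors at -1.08.

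In H4 the markers differed by -2.37 (*Cldn5*) to 0.26 (*Emcn*), with 11 of 12 below control and a median of -0.56. The factors differed by -1.08 to 0.45, with a median of -0.22, and *Erg* (0.08), *Fli1* (0.10) and *Lyl1* (0.45) were above their control mean. *Gata2* stood lowest at -1.08, followed by *Elk3* at -0.54 and *Ets2* at -0.42. In H1 and H2 the tested factors other than *Gata2* stood at 89.0% (*Tal1* in H2) to 131% (*Elk3* in H2) of the control mean, and *Gata2* at 73.8% and 85.5%.

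To compare the factors per endothelial marker, the mean log2(TPM + 1) of the 12 surface markers was subtracted in each library. This reference itself differed by -1.15 between the groups (exact two-sided permutation test, p = 0.371), and by -0.18 without H3 (p = 0.743). On this relative scale the median of all tested genes was 0.98, and the values of the factors stand beside that median. The relative differences were 1.14 for *Etv6*, 0.88 for *Lyl1*, 0.70 for *Elk3*, 0.66 for *Fli1*, 0.55 for *Ets2*, 0.47 for *Ets1*, 0.34 for *Tal1* and 0.24 for *Erg*. *Gata2*, at -0.20, was the only negative one. Without H3 the median of all genes was 0.19, and the factors were at 0.16 (*Etv6*), 0.35 (*Lyl1*), 0.21 (*Elk3*), 0.30 (*Fli1*), 0.21 (*Ets2*), 0.13 (*Ets1*), 0.11 (*Tal1*), 0.18 (*Erg*) and -0.39 (*Gata2*).

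No factor passed the limma test on the relative scale either (0 of 9 with an adjusted p under 0.05), where 1 gene in all, the estrogen receptor gene *Esr1*, had an adjusted p under 0.05 (0.00668% of tested genes), and 0 did when any of H1 to H4 was left out. The adjusted p of the 9 factors in limma lay between 0.516 (*Etv6* and *Lyl1*) and 0.794 (*Gata2*). In H3 the relative level was above the control mean for all 9 factors, by 0.35 for *Gata2*, 0.40 for *Erg* and 1.02 for *Tal1* (raised by the added 1 at 2.03 TPM) up to 4.07 for *Etv6*. So it was for 99.2% of all tested genes, with a median of 3.37, which only *Etv6* exceeded. In H4 it was above the control mean for 8 of 9, by 0.23 for *Elk3* up to 1.22 for *Lyl1*, and by -0.32 for *Gata2*, beside 75.2% of all tested genes and a median of 0.51, which 5 of the 9 exceeded. In H3 *Etv6*, *Ets2* and *Elk3* stood above the marker mean itself, at 0.66, 0.79 and 0.47, which none did in any other library.

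**Figure D3:**
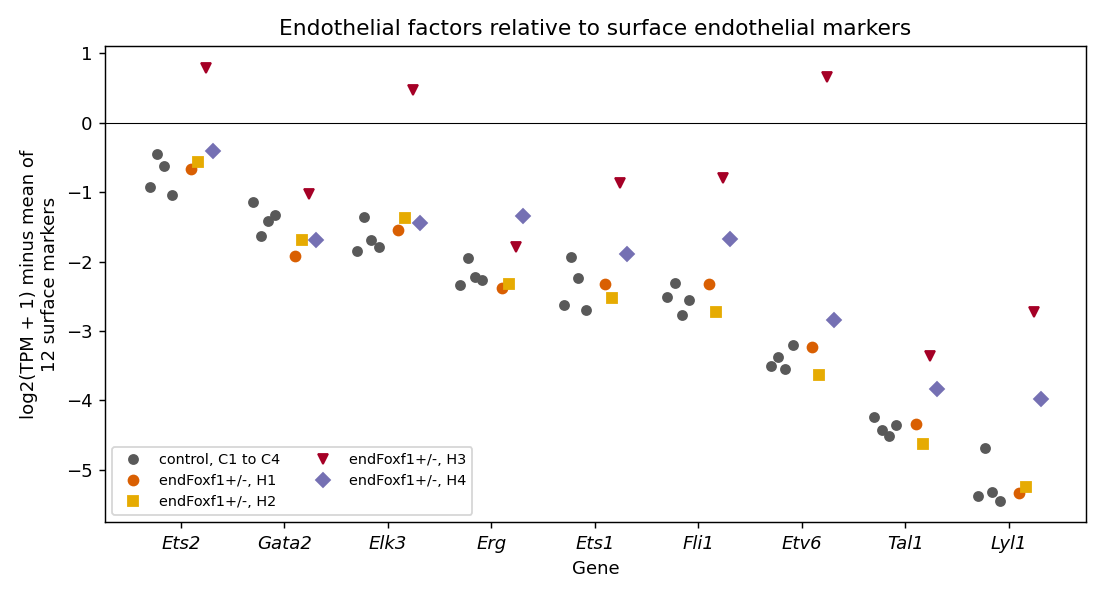
Level of each transcription factor relative to the mean of 12 surface markers (vertical axis, log2 scale) in each library, with controls in gray and endFoxf1+/- libraries in colors. H3 lies above the controls for all factors, with *Etv6* at 0.66 and controls between -3.54 and -3.20, while for *Gata2* the other 3 endFoxf1+/- libraries lie below all controls.

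*Gata2* relative to the markers was -1.14, -1.63, -1.41 and -1.32 in C1 to C4 and -1.92, -1.68, -1.03 and -1.69 in H1 to H4. H1, H2 and H4 were below all controls and H3 above all of them. Over all 8 libraries the groups overlapped (exact two-sided permutation test, p = 0.429). Without H3 the difference was -0.39 ± 0.16 (SE), with *Gata2* lower in 3 of 3 libraries, an exact two-sided permutation p of 0.0571, the smallest that 3 against 4 allows, and a limma adjusted p of 0.645. Of the 14794 genes tested without H3, 2.04% were wholly lower in the same way. *Foxf1* likewise had H1, H2 and H4 below all controls on this scale, but H3 within their range.

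**Figure D4:**
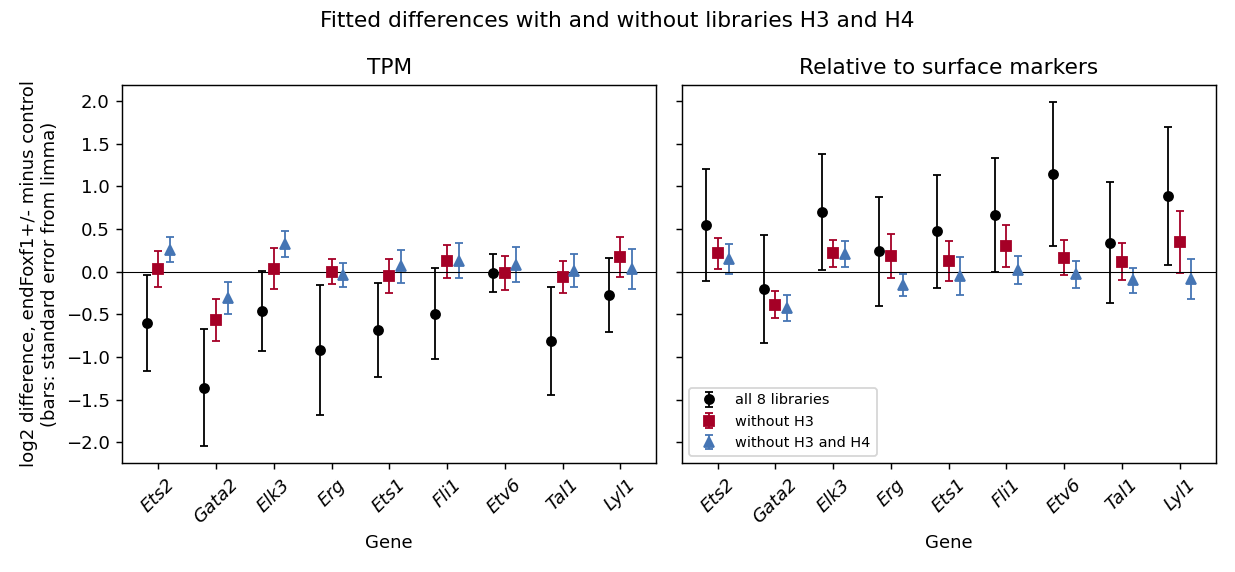
Fitted difference between endFoxf1+/- and control libraries on the log2(TPM + 1) scale (left) and relative to 12 surface markers (right) for each transcription factor, with the standard error from limma, over all 8 libraries, without H3, and without H3 and H4. On the left all differences but that of *Gata2* lie between -0.06 and 0.17 without H3, where *Gata2* is at -0.57, and without H3 and H4 *Gata2* is at -0.31, *Ets2* at 0.26 and *Elk3* at 0.32.

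Ratios between pairs of factors in the same library do not depend on the endothelial reference. The ratio of *Gata2* to *Tal1* was 8.84, 7.16, 9.004 and 8.47 in C1 to C4 and 5.52, 8.04, 7.04 and 4.59 in H1 to H4. H1, H3 and H4 were below all controls and H2 among them (exact two-sided permutation test, p = 0.0571, adjusted p = 0.400 over 7 pairs). *Gata2* to *Erg* was 2.32, 1.25, 1.76 and 1.93 in control and 1.38, 1.56, 1.78 and 0.786 in endFoxf1+/- libraries, with H4 below all controls (exact two-sided permutation test, p = 0.200, adjusted p = 0.4499). *Erg* to *Fli1* was 1.28 ± 0.150 in control and 0.963, 1.32, 0.472 and 1.25 in H1 to H4, and H1 and H3 were below all controls, of which C1 was lowest at 1.125. *Etv6* to *Erg* was 0.368 to 0.522 in control, 0.3498 to 0.547 in H1, H2 and H4, and 6.03 in H3. *Ets1* to *Ets2* stayed between 0.254 and 0.355 in all 8 libraries, H3 included at 0.303. None of the 7 pairs passed after adjustment (the lowest adjusted p was 0.400). Without H3 the log2 differences were -0.50 for *Gata2* to *Tal1* (exact permutation p = 0.114) and -0.57 for *Gata2* to *Erg* (exact permutation p = 0.171). They were -0.12 for *Erg* to *Fli1*, -0.01 for *Etv6* to *Erg* and -0.09 for *Ets1* to *Ets2*.

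The partners through which TAL and GATA factors work were taken from a list of 16 genes, 13 of them tested. Of the 13, 0 passed in limma, 2 had positive and 11 negative differences, with a median of -0.34, and of -0.03 without H3. *Lmo2*, the LIM protein that bridges TAL1 and GATA2, had 96.3, 119, 93.1 and 92.2 TPM in control and 81.7, 86.6, 8.15 and 86.6 TPM in endFoxf1+/- libraries. It was the only 1 of the 13 with all 4 endFoxf1+/- libraries below all controls, as were 2.31% of all tested genes (log2 difference -1.03, -0.23 without H3, exact two-sided permutation p = 0.0286, limma adjusted p = 0.790). *Runx1*, a blood factor that also meets this complex, had 3.80 to 8.35 TPM in control and 5.33, 5.11, 48.1 and 16.3 TPM in H1 to H4. Of the other GATA genes 4 of 5 were tested and 0 passed. *Gata3* had 14.4 ± 4.54 TPM in control and 8.29, 13.3, 1.07 and 17.1 TPM in H1 to H4 (log2 difference -0.83, -0.16 without H3). *Gata1*, the erythroid and megakaryocyte factor, stood at 0.975 to 3.34 TPM in control and 1.35, 1.06, 0.267 and 2.28 TPM in H1 to H4.

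Of 19 further ETS family genes 15 were tested, and 0 passed, with 8 positive and 7 negative differences and a median of 0.04. Their largest differences were in *Spi1* and *Etv1*. *Spi1*, which encodes the myeloid and B cell factor PU.1, had 5.32, 3.74, 2.04 and 1.62 TPM in control and 5.46, 5.97, 45.5 and 9.89 TPM in endFoxf1+/- libraries. All 4 endFoxf1+/- libraries were above all controls, H1 by a small margin (log2 difference 1.65, 1.004 without H3, exact two-sided permutation p = 0.0286, limma adjusted p = 0.790). *Etv1* had 2.72 ± 0.601 TPM in control and 3.49, 4.03, 18.7 and 7.32 TPM in H1 to H4, also above all controls (log2 difference 1.08, 0.64 without H3, limma adjusted p = 0.790). Of the 15 genes these 2 were wholly higher, beside 2.73% of all tested genes. The library with the highest *Spi1* was the one with the highest myeloid markers, and *C1qa*, a macrophage gene, had 3.19 to 5.35 TPM in control and 23.2, 22.1, 171 and 8.04 TPM in H1 to H4. Of the 12 myeloid markers 2 were wholly higher, and *C1qb* had 15.2 to 31.2 TPM in control and 72.5, 82.8, 592 and 17.2 TPM in H1 to H4.

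The list of 22 genes with described ETS or GATA sites in endothelium, which holds all 12 surface markers, had 0 genes past the test, 1 positive and 21 negative differences and a median of -1.09, or -0.21 without H3. *Cldn5*, a tight junction gene, had 998 to 1409 TPM in control and 949, 835, 51.0 and 228 TPM in H1 to H4, below all controls in all 4 (log2 difference -1.93, -1.07 without H3, limma adjusted p = 0.790), and was the only 1 of the 22 to be so, beside 2.31% of all tested genes. *Vwf*, which encodes von Willebrand factor, had 329 to 722 TPM in control and 251, 338, 21.7 and 179 TPM in H1 to H4 (log2 difference -2.02, -1.16 without H3). Among 13 other endothelial transcription factors 0 passed and 12 had negative differences, with a median of -1.22, or -0.18 without H3. In H3 their median difference from the control mean was -3.11, and *Sox17*, an arterial factor, and *Epas1* (HIF-2α) stood at 4.25% and 5.76% of it. *Klf4*, a flow-responsive factor, was the only 1 of the 13 with all endFoxf1+/- libraries below all controls, with 365 to 484 TPM in control and 313, 254, 47.3 and 218 TPM in H1 to H4 (log2 difference -1.29, -0.68 without H3, exact two-sided permutation p = 0.0286, limma adjusted p = 0.790), as were 2.31% of all tested genes.

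Blood cells that make some of these factors were followed by their own markers. The 10 megakaryocyte and platelet markers summed to 786 to 1680 TPM in control and 604, 476, 349 and 904 TPM in H1 to H4. All 10 had negative differences, with a median of -1.38, or -0.92 without H3. Of the 10, 4 were wholly lower, beside 2.31% of all tested genes, and *Gp1bb* had 9.52 to 21.4 TPM in control against 2.62 to 5.30 TPM. Of 8 mast cell markers only *Kit*, which endothelial cells make as well, was tested. Its 142 to 268 TPM in control and 238, 342, 8.35 and 191 TPM in H1 to H4 made up nearly all of their sum in every library but H3 (8.35 of 11.3 TPM), and the tryptase genes *Tpsb2* and *Tpsab1* were listed at 0 in all libraries but H3. The erythroid sum was 105.5 to 554 TPM in control and 91.1 to 257 TPM in endFoxf1+/- libraries, and the lymphocyte sum 28.4 to 43.7 TPM against 23.1 to 95.1 TPM. Of the 11 lymphocyte markers tested, 7 had positive and 4 negative differences. *Lck*, a T cell kinase gene, had 5.62 to 22.1 TPM in control and 4.75, 5.83, 7.22 and 0.195 TPM in H1 to H4, while *Trac* of the T cell receptor was above all controls in all 4 endFoxf1+/- libraries (3.35, 6.38, 19.5 and 3.75 TPM against 1.07 to 2.76). Of the 11 lymphocyte markers, 2 were wholly higher, beside 2.73% of all tested genes. Epithelial markers, led by the alveolar gene *Sftpc*, summed to 6457 to 30635 TPM in control and 1555 to 23065 TPM in endFoxf1+/- libraries, and the 10 proliferation genes to 82.8 to 102 TPM against 178, 167, 395 and 103 TPM in H1 to H4. None of these list genes passed in limma. The other genes with the largest fitted differences in their lists were *Cd3g* (1.35), *Treml1* (-1.66), *Hba-a1* (-1.22), *Hba-a2* (-1.16), *Scgb1a1* (-1.34), *Plk1* (1.40) and *Bub1* (1.18), and *Icam2* (-1.31) among the surface markers. Without H3 these differences were 0.86, -1.315, -0.94, -0.97, -1.205, 1.135, 0.92 and -0.38. The part of these cells in the values of the factors was not tested.

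The genes whose pattern over the 8 libraries was most like that of each factor were found by the root mean square distance between log2(TPM + 1) values, each centered on its own mean, among the other 14963 tested genes. The closest match was *Mef2c*, a MADS-box transcription factor gene, to *Ets2*, at a distance of 0.05. Within the family, *Ets2* was second nearest to *Ets1* (0.14). *Ntng2* and *Bik* were the other genes near *Ets1*, and *BC034090* and *Plekha1* near *Ets2*. *Erg* was nearest to *Tspan15*, *Pcdhgb2* and *St5* (0.11 to 0.16), *Fli1* to *Gm15780*, *Pros1* and *Rgs4* (0.13 each, with *Gm15780* listed at 0 in H3, so that the pseudocount sets its value there), and *Elk3* to *Mamld1*, *Dennd2c* and *Olfr624* (0.09 to 0.13). *Tal1* was nearest to *Efna1*, an ephrin ligand gene, *Crim1* and *Anxa3* (0.09 to 0.10), and *Lyl1* to *Sdc3*, *Gm17655* and *Peli1* (0.13 to 0.14). *Gata2* was nearest to *Shroom3*, *Smad6*, an inhibitor of BMP signaling, and *Mtus1* (0.16 each). *Etv6* stood apart from the other factors, with *Lyl1* as its nearest at 0.65, and its nearest genes were *Timm23*, of mitochondrial protein import, *Prelid3b* and *Cpsf2*, of pre-mRNA 3′ end processing (0.09 to 0.11). Reads of *Pcdhgb2* can be shared with the other genes of its cluster.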

How the data were processed

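RNA-seq of CD45-CD31+ cells sorted from LLC tumors was deposited as TPM for 4 control and 4 endFoxf1+/- libraries. The study's figure of *Foxf1* in its RNA-seq names fewer samples per group and does not say which. The authors computed these TPM per gene symbol, and the values of each library sum to 1000000. The submitters' processing notes name TopHat, Cufflinks, Subread and DESeq2 and the build GRCm38 (mm10), and the annotation is not given in the sources used here. Libraries were made with Nextera XT, which does not mark strand. TPM keep no depth, so precision rests on the spread between libraries, and DESeq2, which needs read counts, was not run. No column of the authors' own comparisons was used.

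Values were analyzed as log2(TPM + 1) in R 4.3.3 with limma 3.58.1 (eBayes with an intensity trend), over the 14964 genes that had a TPM of 1 or more in 4 or more libraries, and p-values were adjusted by Benjamini-Hochberg (threshold 0.05). In a second fit each library's mean of 12 surface markers was subtracted. A fold change on this scale understates that of low genes. Single values were compared by exact two-sided permutation tests (scipy 1.17.1) over all 70 assignments. No pair of the 28 library pairs was identical. The fit was tested on simulated data. The members and lists were chosen with earlier results of these data known. The named genes were the members, *Foxf1*, *Pecam1*, *Cdh5* and *Spi1*, the 2 tested genes of each list with the largest fitted log2 fold change, list genes with an adjusted p under 0.05, and the 3 genes nearest to each tested member. Other genes named in the report, such as *Esr1*, *Cdk17*, *Nfix*, *Tek*, *Eng*, *Emcn*, *Col3a1*, *Rgs5*, *Lck*, *Klf4*, *Tpsb2* and *Tpsab1*, were named after their values were seen. The alternatives changed the pseudocount (0.1, 5), the filter (none, TPM of 5), the scaling (quantile, median ratio), the eBayes trend, the library weights (array weights) or the marker reference, or left out each library, or H3 and H4. Sequences and gene starts came from RefSeq (GRCm38.p6).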

Additional observations from a re-analysis of the deposited data

Results flagged for a closer look

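In the 56 groups of 4 values examined, 6 had an extreme library by Dixon's 95% criterion for the gap to the nearest library over the group's range, and chance flags about 1 in 20 groups. All 6 were the endFoxf1+/- library H3. H3 was far below the other 3 endFoxf1+/- libraries in log2(TPM + 1) of *Erg* (gap over range 0.963), *Tal1* (0.880), *Fli1* (0.843) and *Ets1* (0.833). Relative to the surface markers, H3 was far above them for *Elk3* (0.917). The summed mast cell markers, of which *Kit* was 8.35 of 11.3 TPM in H3 and nearly all elsewhere, were far lower in H3 than in the other endFoxf1+/- libraries (0.839). H3 is also the library with surface markers at 5.92% of the control level and the highest myeloid sum, and the part of these in the values was not tested.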

How the results depend on the processing

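None of the 9 tested factors had an adjusted p under 0.05 in limma in any of the 17 alternatives for TPM or the 19 for values relative to surface markers, and the lowest adjusted p was 0.148 (*Gata2*, relative). Of the differences of single genes, 294 kept their direction and side of the threshold under the alternatives and 30 reversed in sign. *Gata2* stayed negative throughout (-1.74 to -0.31 on TPM, -0.42 to -0.09 relative), and *Erg* on TPM did so with -0.00046 as its smallest size. Most reversals came when H3 and H4 were left out together or both given little weight. The array weights were 0.064 for H3 and 0.178 for H4 on TPM, and 0.0092 and 0.206 on the relative scale. Leaving out H3 alone reversed *Fli1*, *Ets2*, *Elk3* and *Lyl1* on TPM and no relative difference.

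With array weights the differences on TPM became 0.14 for *Fli1*, 0.14 for *Ets2*, 0.12 for *Etv6*, 0.18 for *Elk3* and 0.040 for *Tal1*, and the relative ones -0.20 for *Erg*, -0.11 for *Ets1*, -0.0064 for *Tal1* and -0.20 for *Lyl1*. Without H3 and H4 they became 0.13 for *Fli1*, 0.062 for *Ets1*, 0.26 for *Ets2*, 0.080 for *Etv6*, 0.32 for *Elk3*, 0.012 for *Tal1* and 0.027 for *Lyl1* on TPM, and -0.16 for *Erg*, -0.052 for *Ets1*, -0.034 for *Etv6*, -0.10 for *Tal1* and -0.086 for *Lyl1* relative to the markers. *Etv6* on TPM was 0.15 with quantile normalization and 0.18 with median ratio scaling, which moved the median of all genes from -0.17 to -0.05 and -0.0098. With single libraries left out, differences on TPM ran from -0.77 to 0.12 for *Fli1*, -0.91 to 0.033 for *Ets2*, -0.12 to 0.10 for *Etv6*, -0.74 to 0.034 for *Elk3* and -0.51 to 0.17 for *Lyl1*, all but *Etv6* positive only without H3.

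The count of genes past the threshold on TPM, 0 in the report, was 148 with array weights, 2 without H3 and H4, and 0 to 1 with single libraries left out. On the relative scale, 1 in the report, it was 8 with a pseudocount of 5, 16 with no filter, 246 with array weights, and 0 to 2 with single libraries left out (0 when any of H1 to H4 was left out, 2 without C1). The difference in *Foxf1* was -1.46 with quantile normalization (exact permutation p = 0.0571) and -0.55 without H3 and H4 (exact permutation p = 0.133), and -2.09 to -0.83 with single libraries left out, where 3 against 4 cannot go below 0.0571. The level of the surface markers turned to 0.11 without H3 and H4 (exact permutation p = 0.400). Neighboring pairs in the order of levels that passed, with that of *Lyl1* and *Etv2* counted, numbered 3 to 5 with single libraries left out (5 without H3) and 6 without H3 and H4. The cause of these changes was not tested. No paired analysis was possible because nothing in the labels ties a control to an endFoxf1+/- library, and the replicate numbers used here were given in accession order and only name the libraries. Depth is unknown, so what low TPM such as those of *Etv2* can show is unknown too.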
